A study of Mus musculus with 112 samples.

Results

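The lncRNAs of mouse embryonic stem cells (ESCs) were compared between chromatin and cytoplasm before any loss of SNRNP70, a protein of the U1 small nuclear ribonucleoprotein (U1 snRNP). The comparison used 6 of the 112 samples of the series, chosen by their labels: 3 chromatin and 3 cytoplasm libraries of total RNA from the SNRNP70-AID line at 0 h of indole-3-acetic acid (IAA). This line was built from 46C mES cells of strain 129/Ola and carries SNRNP70 with an auxin-inducible degron (AID), so the tag was present in every library, and the number of clones is not given in the sources used here. The cells were grown with leukemia inhibitory factor, had received no IAA, and were opened in a cytoplasmic buffer with 0.05% NP-40. The other groups set beside them were the same 2 fractions after 4 h of 500 µM IAA, the same 2 fractions of 46C cells 2 h after nucleofection of 75 µM control antisense morpholino oligonucleotide (AMO), and nucleoplasm, whole cells and polyA-selected RNA of the AID line at 0 h. Separate cultures for the replicates are not stated in the labels, so the spread behind each p-value may be technical.

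U1 snRNP pairs with 5′ splice sites at the start of splicing, and the series asked how it bears on the retention of noncoding RNAs on chromatin. A transcript stays on chromatin while it is being made, and many lncRNAs remain there or in nuclear bodies afterwards, whereas transcripts that are spliced, polyadenylated and exported can be translated or degraded in cytoplasm. Chromatin and cytoplasm levels are therefore the basic description of where a lncRNA accumulates. In bulk fractions of this kind, the number of cells that gave a fraction and the RNA held by each cell cannot be told apart.

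Levels were FPKM, fragments scaled to transcript length and library size, further scaled by the authors to lacZ and mCherry spike-in RNA added to each fraction. The lncRNAs listed at 0 numbered 14 to 24 in the chromatin libraries and 75 to 126 in the cytoplasm libraries. The median lncRNA had 2.66, 2.14 and 2.42 FPKM in the chromatin libraries, against 0.53, 0.53 and 0.46 FPKM in the cytoplasm libraries (exact permutation test, two-sided, p = 0.1, the smallest that 3 against 3 libraries allow). The sums over all lncRNAs differed less, at 18150 ± 1389 FPKM on chromatin and 16950 ± 4459 FPKM in cytoplasm (SD, n = 3 each; exact permutation test, two-sided, p = 0.8). Cytoplasm replicate 3 set that spread, since AY036118 alone had 9174 FPKM there, 41.5% of the library's sum. Without AY036118 the sums were 17830 ± 1432 FPKM on chromatin and 13607 ± 793 FPKM in cytoplasm (exact permutation test, two-sided, p = 0.1). Replicate 3 stood apart in both fractions for AY036118, which was highest there on chromatin too, at 708 FPKM. A value of 0 could also stand apart: Gm28967 was listed at 0 in chromatin replicate 3 and at 634 and 672 FPKM in chromatin replicates 1 and 2. In cytoplasm Gm28967 had 250, 217 and 23.0 FPKM, again lowest in replicate 3. A lncRNA at 0 is therefore described only as listed at 0. Both entries were singled out after their values were seen.

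Most lncRNAs were higher on chromatin than in cytoplasm. On the log2(FPKM + 0.1) scale, limma with Benjamini-Hochberg adjustment called 863 of 1268 tested lncRNAs higher on chromatin (68.1%) and 181 lower (14.3%) at an adjusted p under 0.05, while 224 did not pass. The median log2 difference, chromatin minus cytoplasm, was 2.19, and the middle 50% of lncRNAs lay between 0.25 and 3.57. Every chromatin library was above every cytoplasm library for 871 lncRNAs (68.7%), and below for 182 (14.4%). The share on chromatin, here and below, was the chromatin mean over the sum of the chromatin and cytoplasm means, with nucleoplasm left out. It was above 90% for 516 lncRNAs and under 10% for 36, with a median of 84.2%. These counts depend on the spike-in scale: when each library was centred on its own median, all differences moved down by 2.02, 500 lncRNAs were called higher and 469 lower, and 193 of the 863 changed sign. The 181 lncRNAs called lower on the spike-in scale were called lower after centring too. Positive differences under 2.02 below are therefore above 0 on the spike-in scale and below 0 after centring. Counts after centring in the lists below belong beside these 500 and 469 of 1268, not beside the 68.1% and 14.3% of the spike-in scale.

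**Figure D1:**
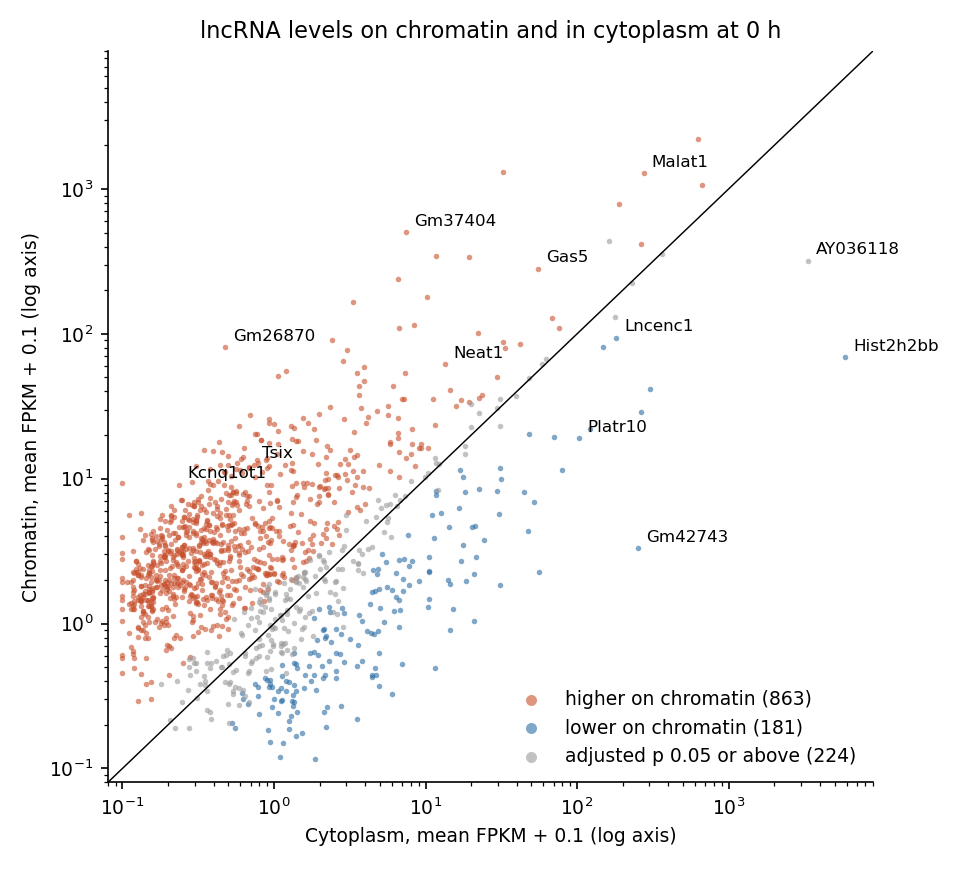
Mean level of each tested lncRNA on chromatin (vertical) and in cytoplasm (horizontal) at 0 h, in FPKM + 0.1 on log axes, over 3 libraries per fraction, coloured by the limma call on the spike-in scale. The 863 lncRNAs called higher lie above the line of equal levels and the 181 called lower lie below it; after median centring the calls were 500 higher and 469 lower.

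Lists of known lncRNAs differed in where they lay. Nuclear-retained lncRNAs had 13 of 13 tested members higher on chromatin, against 68.1% of all lncRNAs. Their median was 2.35 against 2.19 over all lncRNAs (6 higher, 2 lower after centring). The scaffold of paraspeckles, Neat1, had 78.8, 57.7 and 47.7 FPKM on chromatin, against 14.7, 14.4 and 10.9 FPKM in cytoplasm (log2 difference 2.18 ± 0.23 SE, adjusted p = 2.7e-05). Malat1, a nuclear speckle lncRNA, had 1375, 1151 and 1331 FPKM on chromatin, against 308, 271 and 245 FPKM in cytoplasm (log2 difference 2.23 ± 0.16 SE, adjusted p = 4.34e-06). For both, all 3 chromatin libraries were above all 3 cytoplasm libraries, and both differences lay next to the median of all lncRNAs, so that neither passed after centring (0.16 for Neat1 and 0.21 for Malat1). Malat1 was not confined to chromatin: its cytoplasm mean of 274 ± 31.7 FPKM (SD, n = 3) was higher per length than the chromatin mean of Neat1, 61.4 ± 15.9 FPKM.

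Kcnq1ot1, Tsix and Dleu2 had the largest differences of the nuclear-retained list, and Rian the smallest. Kcnq1ot1, which silences its imprinted neighbours in cis, had 10.3, 7.9 and 8.83 FPKM on chromatin, against 0.17, 0.12 and 0.12 FPKM in cytoplasm, and 98.5% of its summed level lay on chromatin (log2 difference 5.26 ± 0.25 SE, adjusted p = 1.11e-06). Its cytoplasm values were close to the pseudocount, so the size depended on that choice, at 3.13 with a pseudocount of 1 and 5.85 with 0.02. Tsix, the antisense partner that represses Xist, had 13.7, 9.8 and 13.7 FPKM on chromatin, against 0.83, 0.71 and 0.36 FPKM in cytoplasm (log2 difference 4.13 ± 0.31 SE, adjusted p = 5.42e-06). The groups did not overlap for either. Xist itself was listed at 0.2, 0.13 and 0.08 FPKM on chromatin and at 0 in each cytoplasm library, and it did not reach the level needed for a test.

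All 5 imprinted lncRNAs were higher on chromatin, against 68.1% of all lncRNAs. All 5 are also in the nuclear-retained list, so they add no members to it. Their median was 2.59 against 2.19 over all lncRNAs (3 higher and 1 lower after centring). Meg3, Rian and Mirg come from 1 imprinted domain on chromosome 12 and are expressed from the maternal copy, yet their positions differed. Meg3 had 60.4, 50.5 and 48.9 FPKM on chromatin, against 7.58, 7.13 and 7.08 FPKM in cytoplasm (log2 difference 2.85 ± 0.16 SE, adjusted p = 1.65e-06). Mirg, a microRNA host, had 38.9, 35.5 and 31.4 FPKM on chromatin, against 5.97, 6.59 and 8.11 FPKM in cytoplasm (log2 difference 2.35 ± 0.19 SE, adjusted p = 6.4e-06). Rian, which hosts small nucleolar RNAs (snoRNAs), had 90.9, 77.4 and 88.5 FPKM on chromatin, against 47.8, 40.4 and 38.4 FPKM in cytoplasm (log2 difference 1.02 ± 0.16 SE, adjusted p = 0.000337; -1.0 after centring). The libraries of the fractions did not overlap for these 3, but 88% of the level of Meg3, 83.7% of Mirg and 67% of Rian lay on chromatin. Nespas, antisense at the imprinted Gnas locus, was at 24.2 ± 2.26 FPKM on chromatin and 3.94 ± 0.496 FPKM in cytoplasm (SD, n = 3 each; log2 difference 2.59 ± 0.18 SE, adjusted p = 4.13e-06).

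The X-linked lncRNAs Firre and Ftx lay on the same side as Tsix, so that 3 of 3 tested members of the X inactivation list were higher. Of all lncRNAs 68.1% were higher, so 3 members say little about the list. All 3 were also counted in the nuclear-retained list. Its median was 2.63 against 2.19 over all lncRNAs (2 higher and 0 lower after centring). Firre, a repeat-rich nuclear lncRNA, had 29.9, 29.5 and 28.5 FPKM on chromatin, against 5.59, 4.57 and 3.94 FPKM in cytoplasm (log2 difference 2.63 ± 0.18 SE, adjusted p = 4.13e-06). Ftx, a neighbour of Xist, averaged 4.49 ± 0.163 FPKM on chromatin and 0.87 ± 0.108 FPKM in cytoplasm (SD, n = 3 each; log2 difference 2.25 ± 0.22 SE, adjusted p = 1.9e-05). Pvt1, the neighbour of Myc, was closer to even at 22 ± 4.11 FPKM on chromatin and 8.05 ± 1.07 FPKM in cytoplasm (SD, n = 3 each; log2 difference 1.43 ± 0.20 SE, adjusted p = 0.000196; -0.59 after centring). Miat was the nuclear-retained member whose libraries overlapped, at 1.48, 2.32 and 2.37 FPKM on chromatin, against 0.69, 1.5 and 0.22 FPKM in cytoplasm (adjusted p = 0.0292). That call was lost when chromatin replicate 2 or 3 or cytoplasm replicate 3 was left out, with a largest adjusted p of 0.089.

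**Figure D2:**
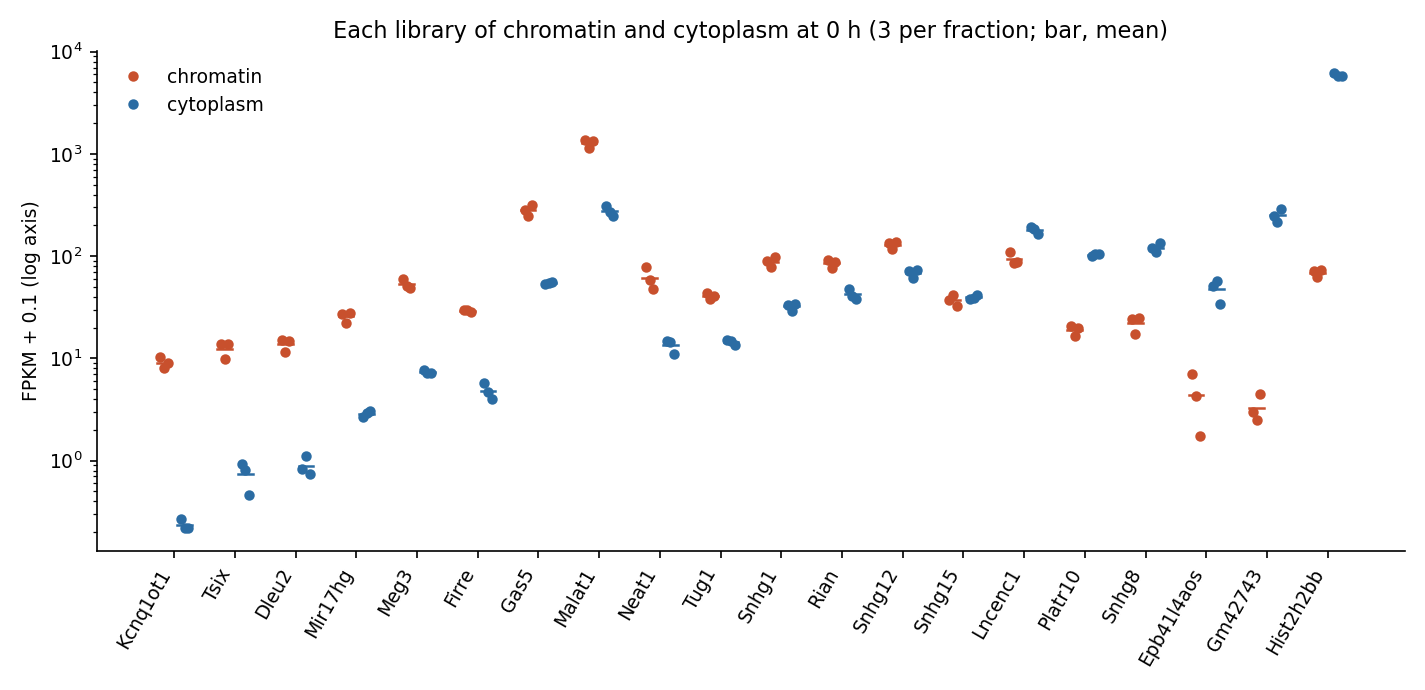
FPKM + 0.1 (log axis) of 20 named lncRNAs in each of the 3 chromatin and 3 cytoplasm libraries at 0 h, with a bar at the mean. The fractions do not overlap for 19 of them, from Kcnq1ot1, which averaged 9 FPKM on chromatin and 0.137 in cytoplasm, to Hist2h2bb at 68.7 and 5875. Snhg15 overlaps. Of all 1268 tested lncRNAs, 68.7% had every chromatin library above every cytoplasm library and 14.4% had every one below. Hist2h2bb and Gm42743 were named by a rule that required fractions without overlap, so the 19 say nothing about lncRNAs at large.

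The largest differences towards chromatin belonged to Gm-numbered genes. One of them, Gm7265, matches the protein-coding gene Nedd4 in RefSeq by a synonym. Gm26870 had 86.9, 70.1 and 85.2 FPKM on chromatin, against 0.17, 0.05 and 0.9 FPKM in cytoplasm (log2 difference 7.87 ± 0.59 SE, adjusted p = 5.42e-06). It kept the top place despite the spread of its cytoplasm values, and the difference was 5.94 with a pseudocount of 1. Gm43560 had 9.3, 7.07 and 11.2 FPKM on chromatin and was listed at 0 in all 3 cytoplasm libraries, as were 16 other lncRNAs, so no fold is given. Those 17 had a median chromatin mean of 1.17 FPKM, and Gm43560 had the highest.

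A group of these genes combined high level with a strong lean to chromatin. Gm37404 had 461, 368 and 680.4 FPKM on chromatin, against 8.47, 6.5 and 6.86 FPKM in cytoplasm (log2 difference 6.05 ± 0.24 SE, adjusted p = 5.45e-07). Gm43238 had 1293, 1061 and 1604 FPKM on chromatin, against 32.5, 35.5 and 29.7 FPKM in cytoplasm (log2 difference 5.32 ± 0.19 SE, adjusted p = 4.09e-07). Gm29055 had 164, 129.8 and 199.7 FPKM on chromatin, against 3.57, 2.76 and 3.26 FPKM in cytoplasm (log2 difference 5.63 ± 0.20 SE, adjusted p = 4.57e-07). None of the cytoplasm libraries came near a chromatin library for these 3. Each had 97.6% to 98.6% of its summed chromatin and cytoplasm level on chromatin. Nucleoplasm, left out of that share, averaged 223, 658 and 74.6 FPKM for Gm37404, Gm43238 and Gm29055. Gm42713, Gm43546, Gm7265 and Gm44045 followed with log2 differences of 5.60, 5.58, 5.52 and 5.33, and adjusted p between 4.09e-07 and 1.65e-06. Gm43051 (5.65) and Gm37653 (5.48) had cytoplasm values of 0 to 0.07 FPKM, and with a pseudocount of 1 their differences were 2.67 and 2.70.

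Hosts of microRNAs are long transcripts from which Drosha cuts hairpins in the nucleus. Of 7 measured, 6 were higher on chromatin and 1 lower, with a median of 2.25 (2 higher and 2 lower after centring), against 68.1% higher, 14.3% lower and a median of 2.19 over all lncRNAs, so the list lay near all lncRNAs. The mature microRNAs that RefSeq (GRCm38.p6) places inside 3 of these hosts are printed to show what the host transcripts carry; the small RNAs themselves were not measured. Capitals mark the seed, bases 2 to 8, and the letters run 5′ to 3′.
miR-15a-5p in Dleu2: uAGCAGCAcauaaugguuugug
miR-16-5p in Dleu2: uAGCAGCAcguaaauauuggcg
miR-15a-3p in Dleu2: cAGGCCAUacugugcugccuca
miR-16-1-3p in Dleu2: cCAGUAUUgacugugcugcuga
miR-92a-3p in Mir17hg: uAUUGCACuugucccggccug
miR-92a-1-5p in Mir17hg: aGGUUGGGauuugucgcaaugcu
miR-22-3p in Mir22hg: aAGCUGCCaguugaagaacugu
miR-22-5p in Mir22hg: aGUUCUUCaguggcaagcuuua
miR-15a-5p and miR-16-5p, from the same host, share the seed AGCAGCA, and the other 6 seeds differ from it and from each other. Their positions are chromosome 14, 61632075 to 61632096 and 61631936 to 61631957, minus strand, for miR-15a-5p and miR-16-5p. On the plus strand lie miR-92a-3p at chromosome 14, 115044476 to 115044496, and miR-22-3p at chromosome 11, 75463772 to 75463793.

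Dleu2, the host of miR-15a and miR-16-1, had 15.1, 11.5 and 14.7 FPKM on chromatin, against 0.72, 1.02 and 0.64 FPKM in cytoplasm (log2 difference 3.97 ± 0.24 SE, adjusted p = 2.19e-06). Mir17hg, known as the host of the miR-17 to miR-92a cluster, of which 1 hairpin lies in its RefSeq span, had 27.2, 22.2 and 28 FPKM on chromatin, against 2.56, 2.83 and 2.97 FPKM in cytoplasm (log2 difference 3.16 ± 0.18 SE, adjusted p = 1.65e-06). Both kept a higher level on chromatin after centring, at 1.95 and 1.14. Mir22hg was lower in level and closer to even, at 3.49, 2.36 and 2.23 FPKM on chromatin, against 1.63, 0.68 and 1.33 FPKM in cytoplasm (log2 difference 1.14 ± 0.35 SE, adjusted p = 0.0148; -0.88 after centring). Without chromatin replicate 1 it did not pass (adjusted p = 0.0595). Mir124a-1hg is kept in this list by its name, although RefSeq places 0 microRNA hairpins in its span. It averaged 35.6 ± 5.85 FPKM on chromatin and 11.1 ± 2.25 FPKM in cytoplasm (SD, n = 3 each; log2 difference 1.68 ± 0.21 SE, adjusted p = 8.36e-05; -0.34 after centring). Mir9-3hg was the host that was lower, at 0.4, 0.42 and 0.2 FPKM on chromatin, against 1.76, 2.63 and 0.83 FPKM in cytoplasm (log2 difference -1.97 ± 0.45 SE, adjusted p = 0.00307).

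Hosts of snoRNAs, whose introns release snoRNAs while the spliced exons form a separate RNA, were closer to even in their median. Of 11 measured, 7 were higher on chromatin, 2 lower and 2 did not pass, against 68.1% higher and 14.3% lower over all lncRNAs. The median was 0.78 against 2.19 over all lncRNAs. After centring 0 of the 11 were higher and 10 lower, against 500 higher and 469 lower of 1268 over all lncRNAs after centring. Gas5, with 8 snoRNA genes in its span, had 284, 246 and 316 FPKM on chromatin, against 53.9, 54.6 and 56.3 FPKM in cytoplasm (log2 difference 2.35 ± 0.15 SE, adjusted p = 2.79e-06). Snhg1, also with 8, had 89.4, 77.5 and 97.9 FPKM on chromatin, against 33.1, 29.1 and 34.3 FPKM in cytoplasm (log2 difference 1.45 ± 0.16 SE, adjusted p = 4.13e-05; -0.57 after centring). Snhg20 is kept in this list by its name, although RefSeq places 0 snoRNA genes and 1 microRNA hairpin in its span. Gas5 was the host furthest towards chromatin, and its libraries, like those of Snhg1, did not overlap between fractions.

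Snhg12, Snhg17, Snhg3 and Snhg5 were higher on chromatin by 0.92, 1.07, 0.78 and 0.54, with adjusted p of 0.000503, 0.00387, 0.004 and 0.0158 (between -1.48 and -0.95 after centring). The call for Snhg5 was lost without chromatin replicate 1 (adjusted p = 0.0631) or cytoplasm replicate 1 (0.0662). Snhg15 (-0.099, adjusted p = 0.574) and Snhg6 (0.34, adjusted p = 0.111) did not pass, and Snhg6 passed at 0.0499 without chromatin replicate 2. Snhg8, with 1 snoRNA gene inside, was lower at 24.1, 17.1 and 24.5 FPKM on chromatin, against 119.9, 109 and 134 FPKM in cytoplasm (log2 difference -2.47 ± 0.19 SE, adjusted p = 5.72e-06). Snhg20 had 14.3, 10.5 and 10.3 FPKM on chromatin, against 40.6, 40.6 and 11.8 FPKM in cytoplasm (adjusted p = 0.033). Its cytoplasm replicate 3 lay among the chromatin values, and the call was lost in 4 of the 6 fits that left out 1 library (largest adjusted p = 0.109).

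On the cytoplasm side, the extreme was Hist2h2bb, an entry that RefSeq lists as protein-coding under a histone H2B gene. It had 70.8, 62.9 and 72.3 FPKM on chromatin, against 6125, 5777 and 5724 FPKM in cytoplasm (log2 difference -6.42 ± 0.14 SE, adjusted p = 5.02e-08), and 1.16% of its level lay on chromatin. Gm42743 had 2.9, 2.37 and 4.34 FPKM on chromatin, against 246, 216 and 292 FPKM in cytoplasm (log2 difference -6.28 ± 0.24 SE, adjusted p = 5.29e-07). Both exceeded the other 8 of the 10 largest negative differences, which ran from -4.66 for 1810058I24Rik to -3.84 for A930005H10Rik. 1810058I24Rik, another entry that RefSeq lists as protein-coding, averaged 2.19 ± 0.922 FPKM on chromatin and 55.9 ± 11.5 FPKM in cytoplasm (SD, n = 3 each; adjusted p = 2.51e-06). Abhd11os (-4.55), Gm43444 (-4.38), 2010204K13Rik (-4.35), 1700042O10Rik (-4.23), Gm43079 (-4.16) and 2010320M18Rik (-4.01) lay between them, with adjusted p of 0.00017 or less. For Gm43444 and 1700042O10Rik, 1 chromatin library was listed at 0 and the difference was -2.43 and -1.99 with a pseudocount of 1. D5Ertd605e averaged 0.33 ± 0.128 FPKM on chromatin and 4.3 ± 0.0529 FPKM in cytoplasm (SD, n = 3 each; log2 difference -3.40 ± 0.30 SE, adjusted p = 1.09e-05), and 1110038B12Rik averaged 81.3 ± 8.76 and 147 ± 11.8 FPKM (log2 difference -0.86 ± 0.15 SE, adjusted p = 0.000803).

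Spliced lncRNAs known from cytoplasm did not all lie there. Of 5 measured, 3 were higher on chromatin and 2 lower, with a median of 1.49 (0 higher and 3 lower after centring). Shares over all lncRNAs were 68.1% higher and 14.3% lower, with a median of 2.19. Epb41l4aos, transcribed opposite Epb41l4a, had 6.95, 4.23 and 1.65 FPKM on chromatin, against 51.4, 56.8 and 34.1 FPKM in cytoplasm (log2 difference -3.63 ± 0.47 SE, adjusted p = 9.94e-05). 2900097C17Rik, a name that RefSeq gives as a synonym of both Norad and Bscl2, had 13.1, 10.8 and 10.0 FPKM on chromatin, against 93.5, 88.7 and 55 FPKM in cytoplasm (log2 difference -2.77 ± 0.23 SE, adjusted p = 9.11e-06). Those 2 were below cytoplasm in every library. Dancr, known in human as a snoRNA host, had 12.5, 9.41 and 9.48 FPKM on chromatin, against 2.72, 2.52 and 2.06 FPKM in cytoplasm (log2 difference 2.06 ± 0.21 SE, adjusted p = 2.7e-05; 0.038 after centring). Tug1, known from both nucleus and cytoplasm, had 43.3, 38 and 40.4 FPKM on chromatin, against 15.1, 14.5 and 13.6 FPKM in cytoplasm (log2 difference 1.49 ± 0.15 SE, adjusted p = 2.53e-05; -0.53 after centring). The libraries of Dancr and Tug1 were above cytoplasm throughout on the spike-in scale, as were those of Gas5.

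lncRNAs of the stem cell state were split between the fractions. The 23 measured were Lncenc1, Panct2 and 21 Platr genes (pluripotency-associated transcripts). Of these, 9 were higher on chromatin, 8 lower and 6 did not pass, with a median of 0.27. After centring 4 were higher and 16 lower, against 500 and 469 of 1268 over all lncRNAs. Shares over all lncRNAs were 68.1% higher and 14.3% lower, with a median of 2.19. Lncenc1, needed for ESC self-renewal, had 109.5, 84.8 and 87.4 FPKM on chromatin, against 192, 185 and 166 FPKM in cytoplasm (log2 difference -0.95 ± 0.16 SE, adjusted p = 0.000588). Platr10 had 20.7, 16.3 and 19.8 FPKM on chromatin, against 101, 104 and 105 FPKM in cytoplasm (log2 difference -2.45 ± 0.16 SE, adjusted p = 2.58e-06). Platr3 averaged 5.64 ± 1.05 FPKM on chromatin and 30.7 ± 1.88 FPKM in cytoplasm (SD, n = 3 each; log2 difference -2.43 ± 0.19 SE, adjusted p = 5.8e-06). These 3 were lower on chromatin in every library, as were Platr17 (-2.88), Platr26 (-1.77), Platr7 (-1.39) and Platr8 (-1.37), with adjusted p of 0.00387 or less. RefSeq lists Platr17 as protein-coding. Platr27 was lower at -0.60 (adjusted p = 0.0336), a call that was lost without chromatin replicate 1 or 2 or cytoplasm replicate 1 (largest adjusted p = 0.122).

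On the other side, Platr12 had 37, 29.5 and 27.3 FPKM on chromatin, against 1.31, 3.16 and 2.22 FPKM in cytoplasm (log2 difference 3.82 ± 0.31 SE, adjusted p = 7.05e-06). Platr25 had 7.8, 5.84 and 7.39 FPKM on chromatin, against 0.23, 0 and 0.2 FPKM in cytoplasm (log2 difference 5.04 ± 0.46 SE, adjusted p = 1.39e-05; 2.81 with a pseudocount of 1). Platr4 had 44.4, 31.4 and 30.1 FPKM on chromatin, against 8.11, 7.29 and 5.93 FPKM in cytoplasm (log2 difference 2.29 ± 0.21 SE, adjusted p = 1.56e-05). In all 3 the chromatin libraries stood clear of cytoplasm. Platr1 (3.22), Platr28 (3.06) and Platr16 (2.60) were also higher, with adjusted p of 0.00057 or less, and so were Panct2 (1.17), Platr5 (1.44) and Platr22 (0.84), all 3 with a negative sign after centring. The call for Platr5 was lost without chromatin replicate 2 (adjusted p = 0.0811), and that for Platr22 without chromatin replicate 1, chromatin replicate 3 or cytoplasm replicate 3 (largest adjusted p = 0.0652). Platr11, Platr14, Platr15, Platr20, Platr21 and Platr6 did not pass, with differences between 0.038 and 0.56; Platr20 passed at 0.0236 without cytoplasm replicate 1.

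lncRNAs named for differentiated cells were measured as a check of the culture, and in whole cells they ran from 0.197 to 21.3 FPKM, with a median of 5.51 FPKM, against 0.56 to 116 FPKM with a median of 3.46 FPKM for the ESC list. The differentiated-cell median was thus not below the ESC median, but it covers only the 7 members found among the entries, Meg3 among them. Others of the planned list, such as Hotair, Fendrr and H19, were not found there. The medians therefore give no verdict on the culture. Of 7 tested, 4 were higher on chromatin, 1 lower and 2 did not pass, with a median of 1.52 (1 higher and 3 lower after centring); over all lncRNAs 68.1% were higher and 14.3% lower, so these counts do not set the list apart. Bvht, known from heart progenitors, was the lower one at 1.85, 2.2 and 1.31 FPKM on chromatin, against 17.1, 15.2 and 10.6 FPKM in cytoplasm (log2 difference -2.93 ± 0.27 SE, adjusted p = 1.33e-05). Sox2ot, which overlaps Sox2, averaged 5.27 ± 0.564 FPKM on chromatin and 0.867 ± 0.232 FPKM in cytoplasm (SD, n = 3 each; log2 difference 2.50 ± 0.26 SE, adjusted p = 2.99e-05). Halr1 (0.28, adjusted p = 0.168) and Hotairm1 (-0.94, adjusted p = 0.231), both from the Hoxa region, did not pass.

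**Figure D3:**
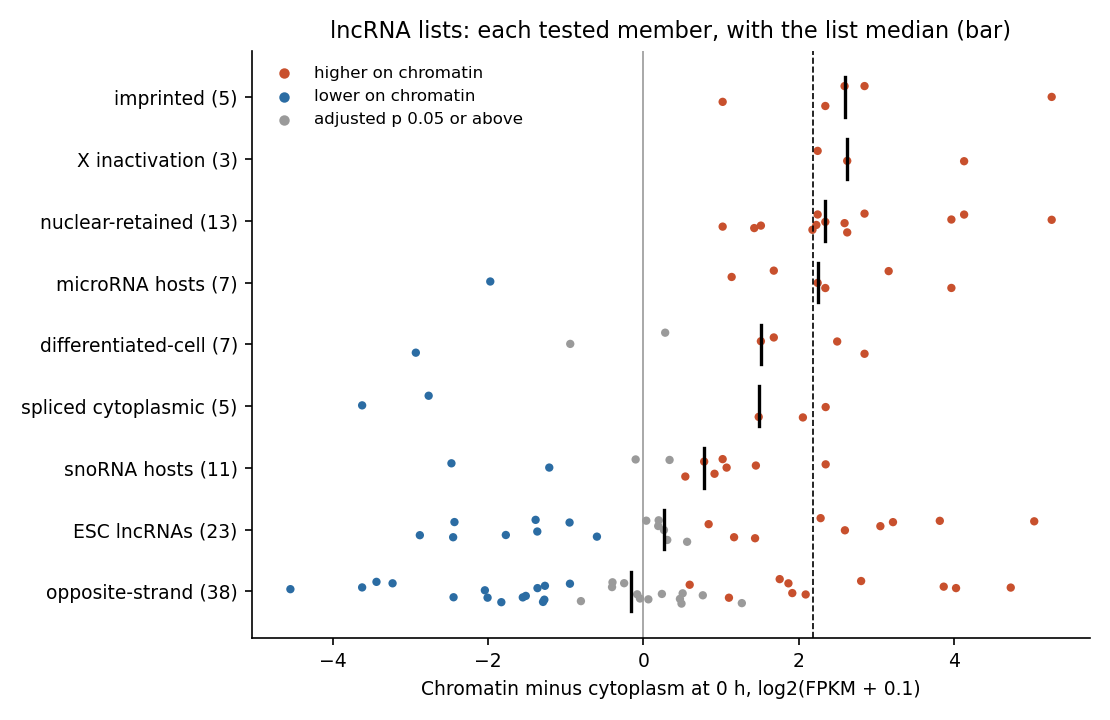
Chromatin minus cytoplasm at 0 h on the log2(FPKM + 0.1) scale for each tested member of 9 lists (points, coloured by call), with the list median (bar), 0 (grey line) and the median of all lncRNAs, 2.19 (dashed line). The imprinted, X inactivation and nuclear-retained medians lie between 2.35 and 2.63, but every imprinted and X inactivation point is also a nuclear-retained point. The snoRNA host, ESC and opposite-strand medians lie between -0.16 and 0.78. On the median-centred scale every point moves down by 2.02.

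Genes with a symbol in os, transcribed on the strand opposite a named gene, had 10 of 38 members higher on chromatin, 15 lower and 13 that did not pass. Their median was -0.16. After centring 4 were higher and 28 lower, against 500 and 469 of 1268 over all lncRNAs. Shares over all lncRNAs were 68.1% higher and 14.3% lower, with a median of 2.19. The extremes were Rapgef4os1 at 24 ± 4.33 FPKM on chromatin and 0.83 ± 0.291 FPKM in cytoplasm (SD, n = 3 each; log2 difference 4.74 ± 0.29 SE, adjusted p = 2.2e-06) and Abhd11os at 0.397 ± 0.105 and 11.5 ± 2.08 FPKM (log2 difference -4.55 ± 0.26 SE, adjusted p = 1.65e-06). Rab26os had the highest cytoplasm level of the list, 48 ± 7.17 FPKM, with 20.2 ± 5.67 FPKM on chromatin (log2 difference -1.27 ± 0.23 SE, adjusted p = 0.000764). Rapgef4os1 and Rab26os were chosen after their values were seen. Whether the authors' values count 1 strand is not given, so an antisense gene and its partner may share reads. Gm-numbered genes had 636 of 819 members higher and 72 lower (median 2.87; 419 and 204 after centring), and genes named with Rik had 145 of 278 higher and 61 lower (median 0.91; 53 and 157 after centring).

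A related contrast was read from the annotation after the values were seen. Of the 1279 entries, 478 (37.4%) matched a RefSeq gene by symbol or synonym. The 413 tested entries that RefSeq lists as lncRNA had 185 higher on chromatin (44.8%) and 107 lower (25.9%), with a median of 0.56. The 793 tested entries without a match had 647 higher (81.6%) and 54 lower (6.81%), with a median of 3.12. Median levels were 1.87 FPKM on chromatin and 1.26 FPKM in cytoplasm for the matched lncRNAs, and 2.78 and 0.32 FPKM for the entries without a match. Another 40 tested entries are protein-coding in RefSeq, among them Hist2h2bb, and 15 of these were higher and 16 lower.

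Among the most abundant lncRNAs, the order of the fractions differed from gene to gene. Gm42418, which RefSeq lists as the pseudogene Rn18s-rs5, had the highest chromatin level at 2698, 2139.8 and 1790.4 FPKM on chromatin, against 701, 672 and 517 FPKM in cytoplasm (log2 difference 1.80 ± 0.20 SE, adjusted p = 4.73e-05; -0.22 after centring). Gm36816 averaged 789 ± 76.3 FPKM on chromatin and 188 ± 32.5 FPKM in cytoplasm (SD, n = 3 each; log2 difference 2.08 ± 0.18 SE, adjusted p = 9.74e-06). Gm43078 averaged 1067 ± 105 and 672 ± 48 FPKM (log2 difference 0.66 ± 0.15 SE, adjusted p = 0.00335; -1.35 after centring). Gm43558, among the 5 highest in cytoplasm, had 315, 320.0 and 432 FPKM on chromatin, against 365, 345 and 388 FPKM in cytoplasm, with overlapping ranges (adjusted p = 0.774). AY036118 had 48.3, 204 and 708 FPKM on chromatin, against 222, 634 and 9174 FPKM in cytoplasm, and the ranges overlapped (adjusted p = 0.118; 0.0327 without chromatin replicate 3 and 0.0298 without cytoplasm replicate 1). In RefSeq its span starts at 39848112 on chromosome 17, inside the span of Gm42418 (Rn18s-rs5), which ends at 39848202. Whether reads of AY036118 come from ribosomal RNA was not tested.

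In the highest of 4 equal classes of mean level, the 5 lncRNAs nearest to even were AU020206 (0.019), Gm37917 (0.028), Gm38157 (-0.032), Platr14 (0.038) and 9930104L06Rik (0.042). RefSeq lists 9930104L06Rik as protein-coding. Platr14 had 32.5, 24.7 and 34.2 FPKM on chromatin, against 27.2, 30.4 and 30.6 FPKM in cytoplasm, so the ranges overlapped. Gm38157 was even in the mean only, with 24.3, 24.7 and 5.46 FPKM in cytoplasm, and it was lower on chromatin without cytoplasm replicate 3 (-0.75, adjusted p = 0.0101). Across levels in whole cells the median difference was 1.63 in the highest of 4 equal classes, from 2.53 FPKM up, against 2.19 to 2.64 in the other classes. In that class 65.3% of 317 lncRNAs were higher on chromatin and 21.1% lower. In the lowest class 63.5% were higher and 13.5% lower, and in the other two 71.5% and 71.9% were higher.

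Nucleoplasm and whole cells were not used to call the fractions apart. For the 863 lncRNAs higher on chromatin, the median levels were 3.19 FPKM on chromatin, 0.593 in nucleoplasm, 0.29 in cytoplasm and 1.00 in whole cells. For the 181 lower ones they were 0.76, 1.10, 3.70 and 1.36 FPKM. Nucleoplasm lay between the other fractions for 733 of the 863 and for 137 of the 181, and above both for 18 and 3. Across 1268 lncRNAs, as a description of points that share libraries and spike-ins, log2 levels in nucleoplasm correlated more with cytoplasm (r = 0.86, rho = 0.80) than with chromatin (r = 0.73, rho = 0.59).

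Levels in nucleoplasm differed between named lncRNAs of several lists. Malat1 averaged 1325 ± 202 FPKM in nucleoplasm, about as much as on chromatin (1286 ± 119 FPKM; SD, n = 3 each). Tug1 was above both other fractions at 75.8 ± 11.2 FPKM. Kcnq1ot1 had 0.37 ± 0.0721 FPKM and Gm26870 0.857 ± 0.271 FPKM, far below their chromatin levels. Gas5 (164 ± 19.7 FPKM) and Neat1 (39.6 ± 7.47 FPKM) lay between the fractions.

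**Figure D4:**
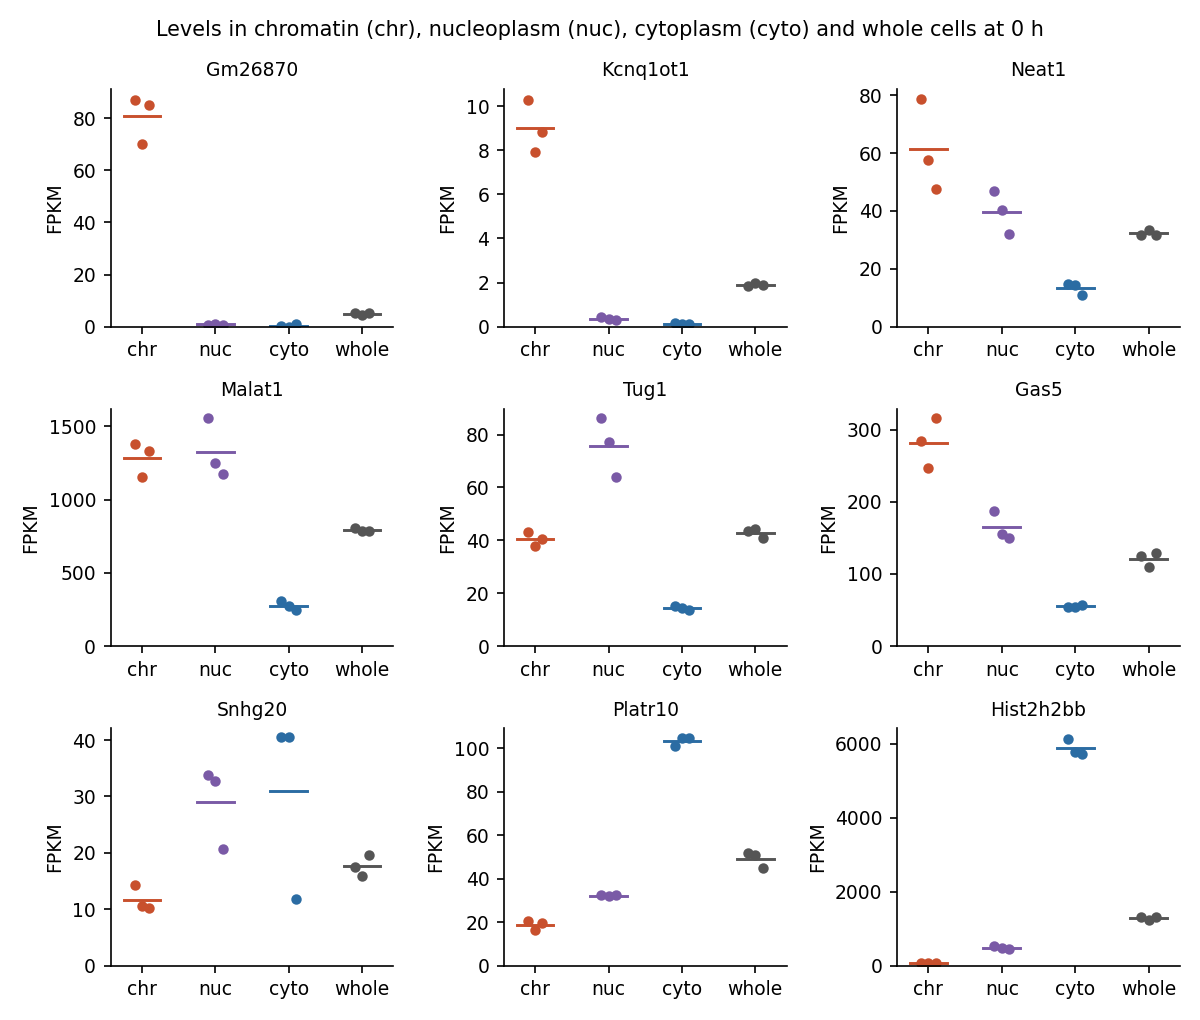
FPKM of 9 lncRNAs in each of 3 libraries of chromatin, nucleoplasm, cytoplasm and whole cells at 0 h (points; bar, mean), on linear axes from 0. Gm26870 and Kcnq1ot1 have nucleoplasm means of 0.857 and 0.37 FPKM, while Malat1 and Tug1 are as high or higher there than on chromatin; whole cells carry no named spike-in scaling and are not on the scale of the fractions.

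Polyadenylated RNA was read on chromatin and in whole cells but not in cytoplasm, and spike-in scaling is named for chromatin alone, so its values are a description. Of the 863 lncRNAs higher on chromatin in total RNA, 659 (76.4%) were in the polyA table, and 637 of those had a higher polyA mean on chromatin than in whole cells (median log2 difference 1.51). Of the 181 lower ones 120 (66.3%) were in the table, and 26 had the higher mean on chromatin (median -0.73). Over all 1279 lncRNAs, 946 (74.0%) were in the table, and 773 of those had the higher mean on chromatin (median 1.19). Neat1 had 462 ± 15.3 FPKM in polyA chromatin and 56.3 ± 2.12 FPKM in polyA whole cells (SD, n = 3 each). Tsix had 38.1 ± 0.427 and 9.19 ± 0.444 FPKM, and Platr10 had 19.7 ± 0.617 and 44.3 ± 2.46 FPKM. Since only chromatin is named as spike-in scaled, these values do not place a lncRNA on one side.

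The same contrast in control AMO cells, another set of libraries scaled in its own table, leaned less to chromatin. There 541 of 1266 lncRNAs were higher on chromatin (42.7%) and 328 lower (25.9%), with a median of 0.53 on the log2(FPKM + 0.2) scale. The difference between the tables was not tested. Over 1259 lncRNAs tested in both, 536 were higher in both, which is 62.5% of the higher calls at 0 h and 99.1% of those in control AMO cells. Lower in both were 168, which is 93.3% of the lower calls at 0 h and 51.7% of those in control AMO cells. A higher call at 0 h met a lower call in control AMO cells for 52 lncRNAs, and the reverse for 0. As a description, the differences of 1259 lncRNAs correlated between the sets with r = 0.89 and rho = 0.87.

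The log2 difference of Hist2h2bb was -6.42 at 0 h and -6.29 in control AMO cells (adjusted p = 3.32e-06), and that of Gm42743 was -6.28 and -6.30 (adjusted p = 2.04e-06). Kcnq1ot1 had 5.26 at 0 h and 2.91 in control AMO cells (adjusted p = 2.88e-05), and Gm26870 7.87 and 4.37 (adjusted p = 2.25e-05). Neat1 had 2.18 and 2.38 (adjusted p = 1.63e-05). These 5 lncRNAs were called on the same side in both sets. The abundant chromatin-leaning genes differed more between the sets: Gm37404 had 6.05 at 0 h and 1.08 in control AMO cells (adjusted p = 0.0279), and Gm29055 5.63 and 1.08 (adjusted p = 0.0382). Gm43238 had 5.32 at 0 h, and in control AMO cells 0.88, which did not pass (adjusted p = 0.09). Malat1 had 958, 681 and 854 FPKM on chromatin, against 1313, 1231 and 1499 FPKM in cytoplasm of control AMO cells (-0.71, adjusted p = 0.0411). All 3 chromatin libraries were below all 3 cytoplasm libraries there, the opposite of 0 h AID cells. The snoRNA hosts had 0 of 11 members higher and 8 lower (median -1.36), the ESC list 3 of 23 higher and 14 lower (median -1.08). The nuclear-retained list had 5 of 13 higher and 2 lower (median 0.41). Shares over all lncRNAs in control AMO cells were 42.7% higher and 25.9% lower, with a median of 0.53.

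After 4 h of IAA, which degrades SNRNP70, 690 of 1267 lncRNAs were higher on chromatin than in cytoplasm (54.5%) and 277 lower (21.9%), with a median of 1.27 against 2.19 at 0 h. The median lncRNA had 1.56, 1.38 and 1.26 FPKM on chromatin and 0.51, 0.51 and 0.49 FPKM in cytoplasm at 4 h. The change in the difference was taken as 4 h minus 0 h in 1 limma fit of 12 libraries. At an adjusted p under 0.05 the difference fell for 226 of 1275 lncRNAs (17.7%) and rose for 6 (0.471%), with a median of -0.65. A fall can come from a lower chromatin level or a higher cytoplasm level. After centring 47 fell and 27 rose. Without 0 h chromatin replicate 1 the counts were 135 and 2, and without 4 h chromatin replicate 3 149 and 4. Without 0 h chromatin replicate 3, 4 h chromatin replicate 1 or 4 h chromatin replicate 2 the rises were 1, 3 and 2. The change shares its 0 h libraries with the values above.

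Gm28373 moved most. It had 8.23, 7.94 and 6.76 FPKM on chromatin at 4 h and 11.9, 10.2 and 8.63 FPKM at 0 h, and 19.2, 18.8 and 15.3 FPKM in cytoplasm at 4 h, against 0.43, 0.63 and 0.89 FPKM at 0 h (change -5.02 ± 0.32 SE, adjusted p = 2.95e-06). Its cytoplasm libraries did not overlap between the times, so a lncRNA on the chromatin side at 0 h (3.82) lay on the cytoplasm side at 4 h. 3110056K07Rik had 4.63, 5.33 and 5.16 FPKM in cytoplasm at 4 h and 0.39, 0.3 and 0.76 FPKM at 0 h (change -3.40, adjusted p = 0.00044). Platr4 differed on the chromatin side instead, with 6.66, 4.73 and 3.66 FPKM at 4 h and 44.4, 31.4 and 30.1 FPKM at 0 h (change -3.08, adjusted p = 0.000272), while its cytoplasm means were 8.56 FPKM at 4 h and 7.11 FPKM at 0 h. Gm16008 had 0.32, 0.58 and 0.28 FPKM on chromatin at 4 h and 4.55, 3.86 and 3.3 FPKM at 0 h (change -3.84, adjusted p = 0.00172). The groups of chromatin libraries at 4 h and 0 h did not overlap for Platr4 and Gm16008.

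Tsix (change -2.37, adjusted p = 0.00117), Pvt1 (-1.71, adjusted p = 0.00198) and Snhg5 (-1.80, adjusted p = 0.00035) fell in chromatin minus cytoplasm as well. All 3 kept sign and call after centring. Gm19412 (-3.34, adjusted p = 0.0315) did not pass after centring (adjusted p = 0.118). In the other direction Gm26909 (1.64), Gm37943 (1.59) and Gm43571 (1.03) passed with adjusted p of 0.0485, 0.0212 and 0.0387. Of 12 fits that left out 1 library, the call was lost in 10 for Gm26909 (largest adjusted p = 0.105), 10 for Gm43571 (0.0844) and 6 for Gm19412 (0.0706), and Gm37943 lost it without 0 h chromatin replicate 1 (adjusted p = 0.0559). Hist2h2bb did not pass (change 0.022, adjusted p = 0.944).

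**Figure D5:**
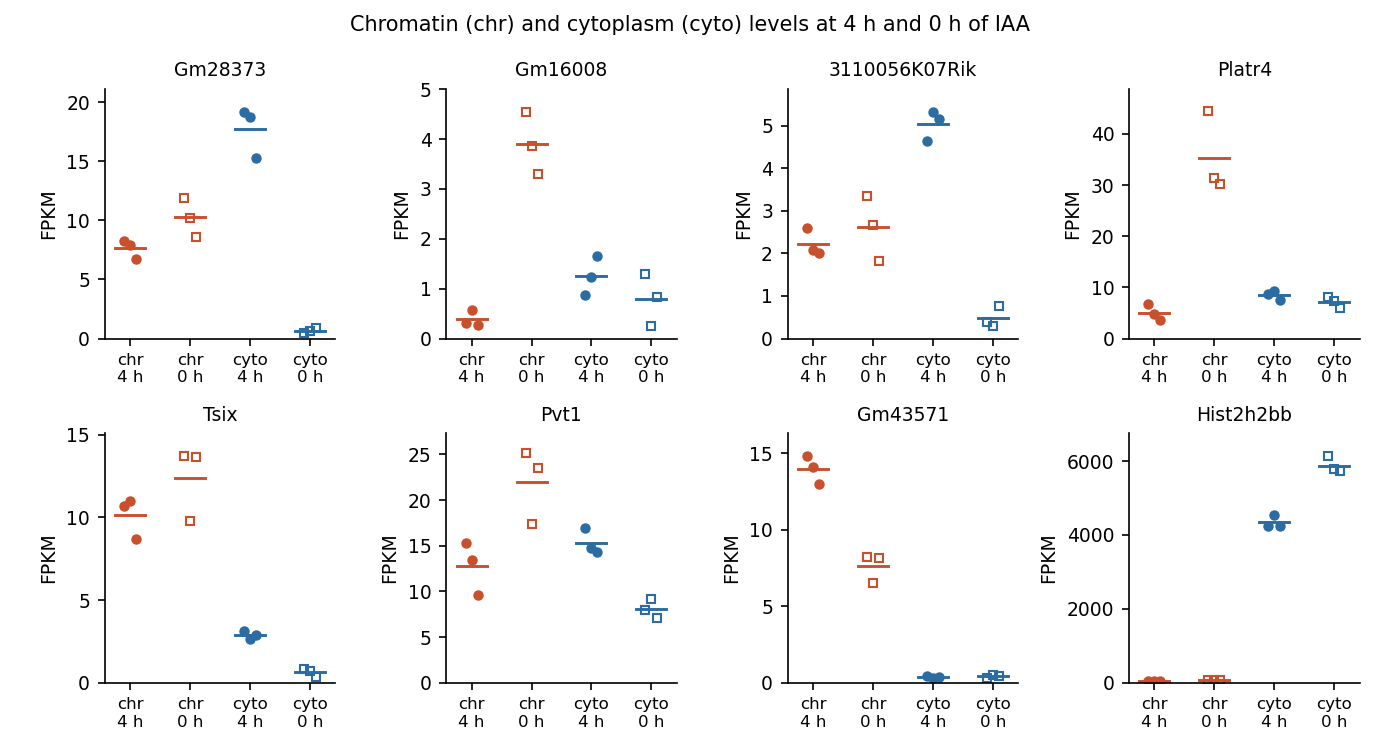
FPKM of 8 lncRNAs on chromatin and in cytoplasm at 4 h (filled) and 0 h (open) of IAA, 3 libraries each with a bar at the mean, on linear axes from 0. Gm28373 and 3110056K07Rik differ in cytoplasm, Platr4 and Gm16008 on chromatin, and Gm43571 is higher on chromatin at 4 h; Hist2h2bb stays in cytoplasm at both times.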

How the data were processed

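Total RNA of each fraction was mixed with 5 µl of 0.1 ng/µl spike-in RNA and depleted of ribosomal RNA, per the labels' protocols. The deposited values are FPKM, scaled by the authors to the spike-ins in the fractions, per the file headers. CASAVA, TopHat, Cufflinks and build mm10 are named per the submitters' processing notes, without versions. Values carry 2 decimals, so reads could not be recovered, and read depth is not given.

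The tables of AID and AMO total RNA held 1282 entries each, of which 3 shared an identifier and were left out. Symbols were found for 1261 of the 1279 identifiers, and 6 of these identifiers share a symbol with another. Another 45 columns of values were not used. Groups followed the labels. Fractions were compared on log2(FPKM + 0.1), or + 0.2 for AMO cells, each near the 10th percentile of values above 0, using limma 3.58.1 under R 4.3.3 (moderated with a trend; p-values adjusted by Benjamini and Hochberg's method) over all lncRNAs in which at least 3 of the libraries reached the pseudocount. SE are limma's. Single values used exact permutation tests (scipy 1.17.1, Python 3.11.15). The fits were tested on simulated data. In control AMO cells same-numbered libraries deviated together (correlations 0.11 to 0.21), and the replicate block gave 565 higher and 332 lower there.

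The lncRNAs described, their lists and the tests were chosen with earlier results of these data known. The rule named, among lncRNAs past adjusted p 0.05 with non-overlapping fractions and at least the median level, the 10 largest differences each way, the 5 highest per fraction, the 5 most even of the highest of 4 classes of level, up to 5 changes with IAA each way, all members of the lists other than symbol patterns, and 7 standing genes. The lists hold nuclear-retained, imprinted, X inactivation, snoRNA host, microRNA host, spliced cytoplasmic, ESC and differentiated-cell lncRNAs and the os, Gm and Rik symbols; some lncRNAs are in several. Sequences and positions are from RefSeq. Alternatives were other pseudocounts, filters, scalings, fits and left-out libraries.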

Additional observations from a re-analysis of the deposited data

Results flagged for a closer look

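Of the 100 lncRNAs named, 40 differed between 4 h and 0 h of IAA in chromatin minus cytoplasm (limma, adjusted p under 0.05, 3 libraries per group), 37 with a fall and 3 with a rise. Over all lncRNAs 17.7% fell and 0.471% rose. Of the 100, 8 were named for this change itself, and 32 of the other 92 passed. Some of these 92 were named for their difference or level at 0 h, in libraries that also enter the change. Their count is therefore not free of selection and cannot be weighed against the share over all lncRNAs. The median change of all 1275 lncRNAs tested was -0.65, and after median centring of the libraries 37 of the 40 kept their sign and 18 kept sign and call. Among nuclear-retained lncRNAs the log2 change was -1.23 for Firre, -0.68 for Malat1, -1.32 for Meg3, -1.07 for Neat1, -1.04 for Nespas, -1.71 for Pvt1 and -2.37 for Tsix. Among snoRNA hosts it was -0.68 for Gas5, -1.14 for Snhg1, -0.72 for Snhg3, -1.80 for Snhg5 and -0.85 for Snhg6. After centring the signs of Malat1 (0.052), Gas5 (0.051) and Snhg3 (0.019) were the opposite ones. In the ESC list it was -1.40 for Platr14, -3.08 for Platr4, -0.90 for Lncenc1, -1.67 for Panct2, -1.18 for Platr15, -1.17 for Platr17, -2.46 for Platr20, -1.94 for Platr21, -2.15 for Platr22, -2.08 for Platr27 and -2.32 for Platr6. Among the other named lncRNAs that fell it was -2.52 for Gm37404, -1.87 for Gm29055, -1.21 for Gm43546, -1.86 for Gm43238, -1.18 for Gm36816, -5.02 for Gm28373, -3.84 for Gm16008, -3.40 for 3110056K07Rik, -3.34 for Gm19412, -1.80 for Dancr, -1.31 for Sox2ot, -1.10 for 1110038B12Rik, -1.20 for D5Ertd605e and -1.18 for Rab26os. It was 1.64 for Gm26909, 1.59 for Gm37943 and 1.03 for Gm43571 among those that rose.

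For 16 of the 100 named lncRNAs every library of 0 h AID cells placed chromatin above cytoplasm and every library of control AMO cells placed it below. This difference between the tables was not tested. The share of all lncRNAs that meet the same rule is not given here, and some of the 100 were named for their difference or level at 0 h. The count of 16 can therefore not be weighed against all lncRNAs. In control AMO cells chromatin minus cytoplasm was -0.71 for Malat1, -0.92 for Gm43078, -1.01 for Gm16008, -1.49 for 3110056K07Rik, -0.60 for Gm37943, -1.11 for Rian, -0.43 for Snhg1 and -1.29 for Snhg12. It was -0.41 for Snhg17, -1.36 for Snhg3, -1.42 for Snhg5, -1.31 for Mir22hg, -0.84 for Tug1, -0.47 for Panct2, -1.58 for Platr20 and -1.79 for Platr5. At 0 h the differences of Gm16008, 3110056K07Rik, Gm37943 and Platr20 were 2.37, 2.25, 1.15 and 0.56. All lncRNAs had a median of 2.19 at 0 h against 0.53 in control AMO cells. Over 1259 lncRNAs tested in both sets, 52 were called higher at 0 h and lower in control AMO cells, and 0 the reverse. Gm37943, Snhg1, Snhg17, Panct2 and Platr20 are not among these 52, since the limma call did not pass in 1 of the sets.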

How the results depend on the processing

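At 0 h, the counts of 863 higher and 181 lower lncRNAs stayed within 1.5 times under pseudocounts of 1 and 0.02, no filter, a mean of at least 1 FPKM, equal library sums, 1 fit of 18 libraries, limma without trend and the replicate block. Leaving out 1 library gave 717 to 860 higher and 160 to 185 lower, with medians of 1.87 to 2.26; without a chromatin library fewer lncRNAs reached the filter by construction. The median difference was 1.37 with a pseudocount of 1 and 1.77 without replicate 3 of both fractions. Centring gave 500 higher and 469 lower with a median of 0.17, and at 4 h 489 lower with a median of -0.040 in place of 277 and 1.27. In control AMO cells the median was 0.18 after centring, and leaving out 1 library gave medians of 0.45 to 0.59. At 4 h leaving out 1 library gave medians of 0.82 to 1.34. The change from 0 h to 4 h had 6 rises, 226 falls and a median of -0.65. It had 20 rises and 394 falls with a pseudocount of 1, 27 and 47 with a median of 0.084 after centring, and 1 to 8 rises and 135 to 241 falls without 1 library. Summed levels differed by 1200 FPKM, 7044 FPKM without the 5 highest lncRNAs (exact permutation p = 0.1) and 4223 FPKM without AY036118. The cause of these changes was not tested.

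In the AID line, same-numbered deviations over all lncRNAs correlated at -0.05 to 0.04 at 0 h and -0.05 to 0.09 at 4 h. These low values do not show that the numbers pair no samples. AY036118 rose from replicate 1 to replicate 3 in both fractions at 0 h, so single entries could vary with the number. With the replicate block the counts were 861 and 177 at 0 h, 698 and 285 at 4 h, and 3 rises and 197 falls for the change. With the block AY036118 (adjusted p = 0.00169) and Platr20 (0.0308) passed at 0 h, and it changed no other call among the lncRNAs named at 0 h; the rises of Gm26909 (0.0874), Gm37943 (0.0528) and Gm43571 (0.0716) did not pass. With equal sums Gm43078, Miat, Snhg20, Snhg3, Snhg5, Platr22, Platr27 and Platr5 did not pass at 0 h.

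After centring the sign at 0 h was reversed, with log2 differences of -0.22 for Gm42418, -1.35 for Gm43078, -2.0 for AU020206, -1.99 for Gm37917, -1.98 for Platr14, -1.98 for 9930104L06Rik, -0.87 for Gm37943, -0.50 for Miat, -0.59 for Pvt1, -1.0 for Rian, -0.57 for Snhg1, -1.10 for Snhg12, -0.95 for Snhg17, -1.23 for Snhg3, -1.48 for Snhg5, -1.68 for Snhg6, -0.34 for Mir124a-1hg, -0.88 for Mir22hg, -0.53 for Tug1, -0.85 for Panct2, -1.71 for Platr11, -1.82 for Platr15, -1.45 for Platr20, -1.83 for Platr21, -1.18 for Platr22, -0.58 for Platr5, -1.75 for Platr6 and -1.74 for Halr1. With equal sums it was -0.11 for AU020206, -0.099 for Gm37917, -0.089 for Platr14 and -0.084 for 9930104L06Rik. With equal sums and without 4 entries (AY036118, Gm42418, Gm28967 and Gm12238) it was -0.22 for AU020206, -0.21 for Gm37917, -0.20 for Platr14, -0.20 for 9930104L06Rik, -0.043 for Platr15 and -0.045 for Platr21. Without replicate 3 of both fractions it was -0.022 for Platr14, -0.063 for 9930104L06Rik, 0.030 for Snhg15 and -0.076 for Platr11. Without 1 library the values near 0 ran from -0.20 to 0.025 for Gm43558, -0.16 to 0.14 for AU020206, -0.12 to 0.15 for Gm37917, -0.052 to 0.18 for Platr14, -0.75 to 0.33 for Gm38157, -0.10 to 0.15 for 9930104L06Rik. The settings that leave out replicate 3, 4 entries or AY036118 were chosen after seeing the data. A classification of all lncRNAs by exons or length and a search of 5′ splice sites were not run, since 37.4% of entries matched the annotation and no transcript or intron sequence was used here. Read depth is not given for these FPKM values, so precision rests on 3 libraries per fraction.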
